A study of Mus musculus with 6 samples.

Results

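The 40 genes described here encode the proteasome and the proteins that assemble or activate it. They are the protein-coding genes whose symbol starts with Psma, Psmb, Psmc, Psmd or Psme and a digit, leaving out 5 beta subunits by name (Psmb5, Psmb8, Psmb9, Psmb10 and Psmb11). Their FPKM had to average 1 or more across the 6 libraries. All 40 genes that matched the name passed that minimum, out of 12929 genes that passed it in all. FPKM is scaled to transcript length and library size, so levels of different genes can be set side by side. By role the members comprise 8 alpha ring subunits, 6 beta ring subunits, 6 ATPases and 3 other subunits of the base, 8 lid subunits, 3 assembly chaperones, 5 activators and 1 gene, Psmc3ip, that carries the name but is no subunit.

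RNA was sequenced from 32D cells, a mouse myeloid progenitor line that grows in interleukin 3 (here 1 ng/mL). All cells carried dCas9-KRAB, a Cas9 that cannot cut DNA joined to a repressor domain, and had been selected with puromycin for 1 week after lentiviral transduction. The groups were guide sg2 (2 libraries), guide sg5 (2 libraries) and an empty vector without a guide, EV (2 libraries), each with replicate numbers 1 and 2. By its title the series is about an enhancer of CEBPE, which encodes a transcription factor needed for the last steps of granulocyte maturation. The sources used here give neither the guide sequences nor their targets, nor whether cells were pooled or clonal. The second sg5 library carries the name of sg2 in its source name and genotype, and its title was followed here, which says sg5. The labels do not tie the replicates to separate cultures, and each p-value therefore reflects the spread among these libraries alone, which may be technical.

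The proteasome degrades proteins that carry ubiquitin chains. Its core particle is a barrel of stacked rings: the outer alpha rings gate the entrance and the inner beta rings hold the proteolytic sites. The regulatory particle caps the barrel. Its base unfolds substrates with a ring of ATPases and threads them into the core, while its lid removes the ubiquitin. Activators can replace the regulatory particle at either end. In many cell types the subunit genes are transcribed together, and the factor Nfe2l1 raises them when proteasome activity is short.

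The implied depth was 31300000 to 45100000 fragments per library, at which 3 fragments on a 1 kb transcript equal 0.0665 to 0.0958 FPKM. Every member lay far above that in every library. Cebpe, the gene named in the series title, had 18.7 and 14.4 FPKM in the sg2 libraries numbered 2 and 1, 22.7 and 19.4 FPKM in the sg5 libraries, and 100.4 and 42.0 FPKM in the EV libraries. All 4 guide libraries lay below both EV libraries, and the difference on the log2 scale was -1.75 (SE 0.36). By limma its adjusted p was 1.00 without the block and 0.223 with it, so it did not pass. Libraries of number 2 differed from those of number 1 beyond the members. Protein-coding genes held 59.2 to 64.1% of summed FPKM in number 2, against 73.9 to 78.1% in number 1. The short genes Mir6236 and Gm15662 together held 23.9 to 28.2%, against 8.37 to 12.5%. Of 9 myeloid progenitor markers 8 averaged at least 1 FPKM, while Kit was listed at 0 in all 6 libraries. The T cell markers Cd3e and Cd3g summed to at most 0.420 FPKM in any library, with Cd3e at 0 throughout, as was the epithelial marker Epcam.

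Mean levels over the 6 libraries ran between 276 FPKM for Psma6 and 8.20 FPKM for Psme2b. Beta ring genes averaged 112 to 229 FPKM, and the ATPases of the base 59.4 to 93.6 FPKM, so that these ranges did not overlap. Lid genes averaged 47.1 to 102 FPKM, and the chaperones 12.6 to 50.7 FPKM. The alpha ring ran between 20.98 FPKM (Psma8, the germ-cell counterpart of Psma7) and 276 FPKM. Summed over the 40 members, the number 2 libraries held 3317 (sg2), 3348 (sg5) and 3517 (EV) FPKM, against 5149, 4672 and 5137 FPKM in number 1. The number 2 sums were thus 64.4%, 71.7% and 68.5% of the number 1 sums in sg2, sg5 and EV. As shares of the protein-coding sum, the members took 0.599, 0.619 and 0.630% in number 2 of sg2, sg5 and EV, against 0.813, 0.758 and 0.815% in number 1. In bulk RNA, fewer cells of one kind and less RNA per cell cannot be told apart.

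**Figure D1:**
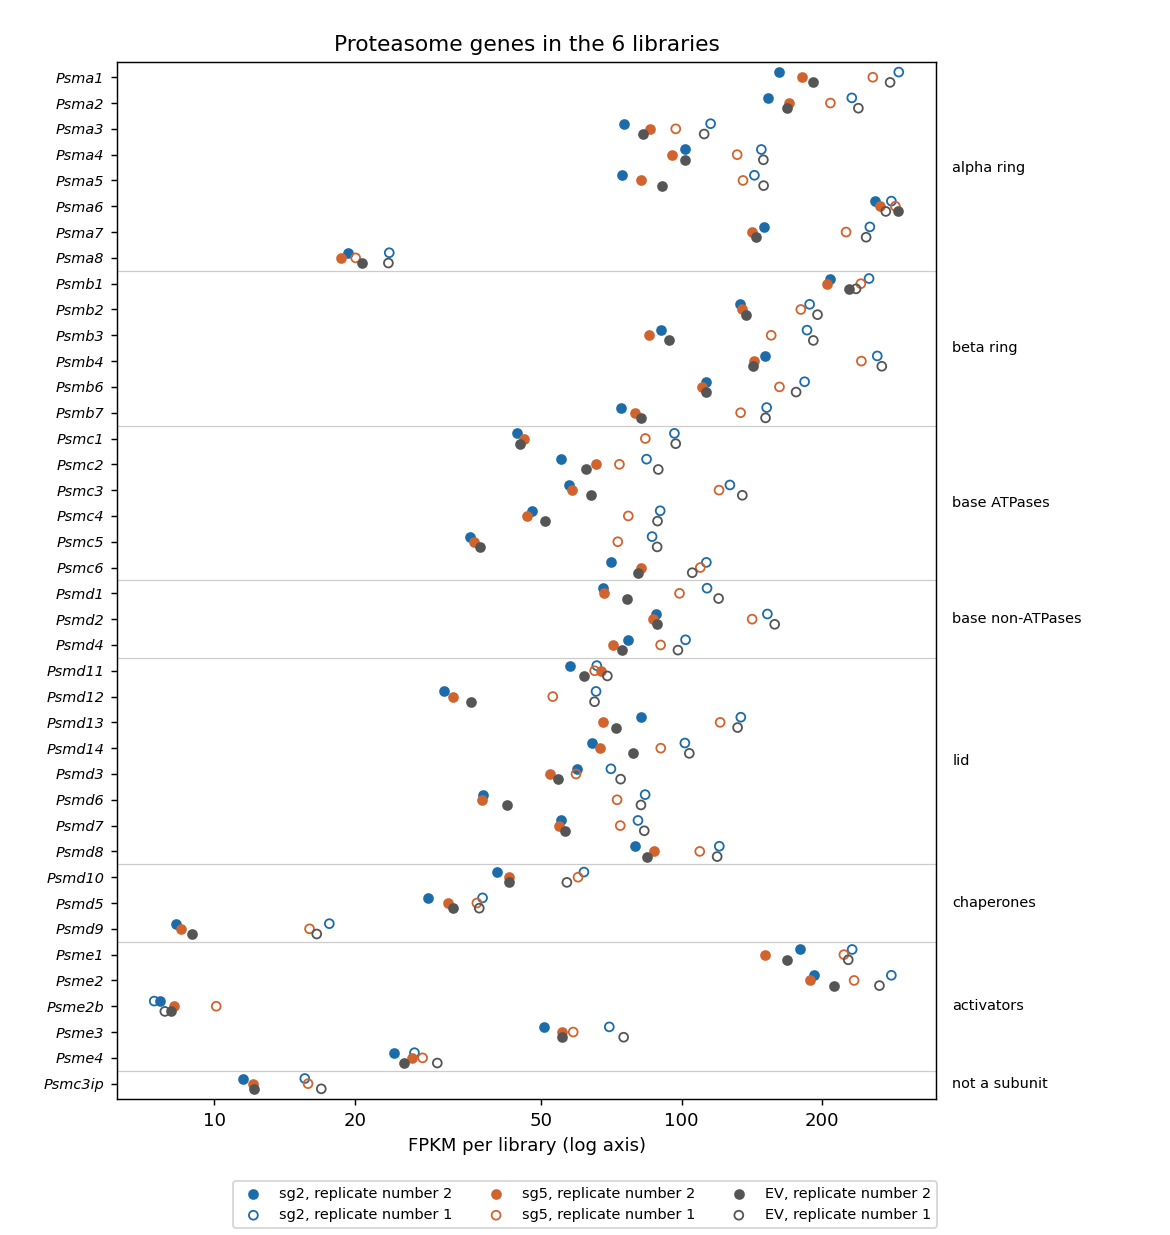
FPKM (log axis) of each of the 40 proteasome genes in the 6 libraries, grouped by role. Filled points are replicate number 2 and open points number 1, coloured by group. For 35 of the 40 genes every filled point lies left of every open point, as for 34.1% of all genes tested. The exceptions are Psma6, Psma8, Psmd3, Psmd11 and Psme2b.

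The first comparison asked whether the proteasome genes differed between cells with a guide and cells with the empty vector. No member passed the test. By limma with Benjamini-Hochberg adjustment over all genes tested, 0 of 40 members had an adjusted p under 0.05 for guides against EV, beside 0.0% of all 12929 genes. At an unadjusted p under 0.05 there were 0 members, beside 1.31% of all genes. With the replicate number as a block, 0 of 40 members passed, beside 0.0387% of all genes, and 0 members had an unadjusted p under 0.05, beside 5.72%. The members' median log2 difference was -0.068, against -0.0046 over all genes. Of the 40 members 38 were on the negative side, beside 51.3% of all genes. The members' single values lay between -0.19 (Psmd14) and 0.053 (Psme2b). For no member did the 4 guide libraries all lie on one side of both EV libraries, which 2.56% of all genes did below EV and 2.54% above. The smallest exact two-sided permutation p of a member was 0.467, where 15 splits allow 0.0667 at the least. The block fit gave 95% intervals that lay between -0.39 and 0.38 over all members, with a median half-width of 0.19, against 0.59 without the block. The plot of guide differences shows these intervals.

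**Figure D2:**
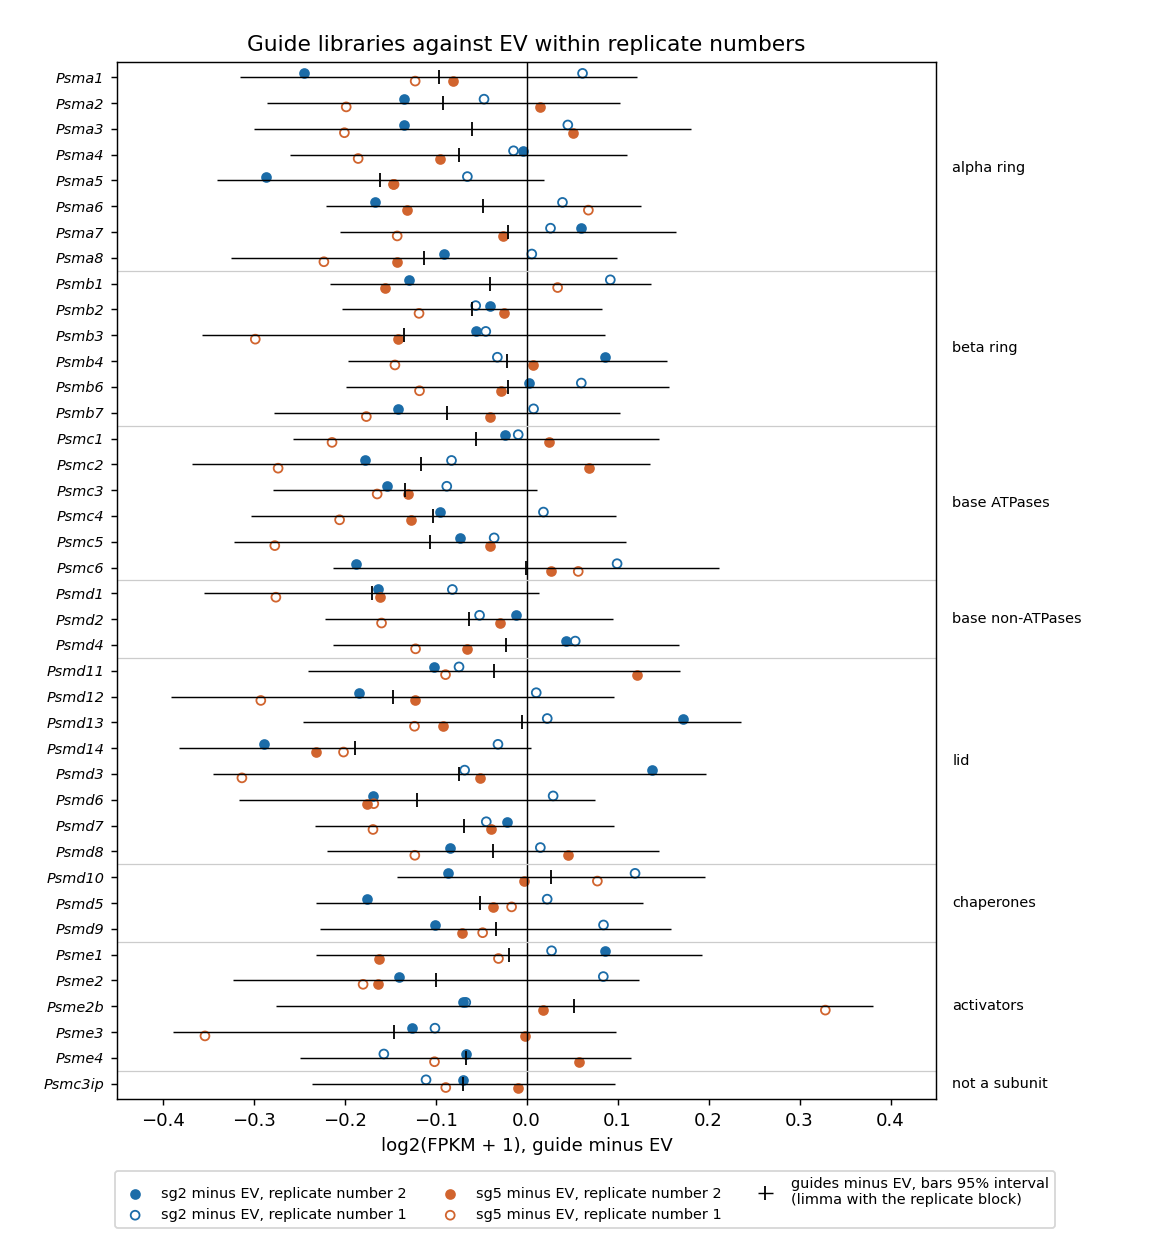
Difference in log2(FPKM + 1) between guide and EV libraries of the same replicate number for the 40 genes, by role. Points are sg2 or sg5 minus EV in number 2 (filled) and number 1 (open). Ticks are the guides-against-EV difference and bars its 95% interval from limma with the replicate block. The points farthest from 0 belong to Psme2b, Psme3 and Psmd3, and 38 of 40 ticks are left of 0, as are 51.3% of all genes tested.

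The small negative values were not alike in each pair of libraries. For sg2 minus EV, the members' median was -0.093 in number 2, with 33 of 40 below EV, and -0.0016 in number 1, with 20 of 40 below. For sg5 minus EV, it was -0.040 in number 2, with 30 below, and -0.15 in number 1, with 35 below. Of all genes tested, 50.1% and 46.8% were below EV for sg2 in numbers 2 and 1, and 53.2% and 49.7% for sg5. The summed member FPKM of sg2 was 94.3% of EV in number 2 and 100.2% in number 1. That of sg5 was 95.2% of EV in number 2 and 91.0% in number 1. Both number pairs put sg2 below EV for 18 members and sg5 below EV for 27 members. The share of all genes tested that lay below EV in both pairs was not counted. The 2 guides were compared with the same EV libraries. Without the block, leaving out the first EV library turned the median for guides against EV to 0.19, and leaving out the second gave -0.35.

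Taken singly, sg2 against EV gave a median of -0.046 over the members (range -0.18 to 0.098), with 32 of 40 negative, beside 49.1% of all genes. In that comparison 0 of 40 members passed limma's test, beside 0.00773% of all genes, and 0 had an unadjusted p under 0.05, beside 1.16%. The fit with the block also called 0 of 40, beside 0.0232% of all genes, with 0 unadjusted, beside 4.3%. For sg5 against EV the median was -0.095 (range -0.22 to 0.17), with 36 of 40 negative, beside 52.6% of all genes. Again 0 of 40 passed, beside 0.0% of all genes, and 0 had an unadjusted p under 0.05, beside 1.36%. With the block 0 of 40 passed, beside 0.0155%. Psmb3 and Psmd1 then had an unadjusted p under 0.05, as 8.04% of all genes did. For sg5 against sg2 the median was -0.059 (range -0.22 to 0.24), with 30 of 40 negative, beside 52.8% of all genes. The test called 0 of 40, beside 0.0% of all genes, with 0 unadjusted, beside 0.859%. The block fit called 0 of 40, beside 0.0%, and left Psmd13 with an unadjusted p under 0.05, as 5.29% of all genes had. With the library of the conflicting label counted as sg2, the fit without the block gave a median of -0.13 for sg2 against EV, with 40 of 40 negative, of 0.14 for sg5 against EV and of 0.28 for sg5 against sg2. In that grouping sg5 is a single number 1 library set against EV libraries of both numbers, and guide and replicate number cannot be told apart. Within number 1, where no label conflicts, the median of sg5 minus EV is the -0.15 given above. Rescaling to the protein-coding sum gave -0.056 for sg5 against EV, with 32 of 40 negative, and -0.023 for sg5 against sg2, with 24 of 40 negative. Over all genes 43.4% and 43.7% were then negative.

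The members with the smallest p values in these comparisons differed by little. Psmd14, the lid enzyme that cuts ubiquitin chains off substrates, had 64.3 and 102 FPKM in the sg2 libraries numbered 2 and 1, 66.9 and 90.3 FPKM in the sg5 libraries, and 78.7 and 104 FPKM in the EV libraries. It was lowest in the number 2 guide libraries, yet the number 1 sg2 library exceeded the number 2 EV library, so the groups overlapped. Its difference was -0.19 (SE 0.24), with an interval of -0.38 to 0.0053 in the block fit. Psme2b had 7.63 and 7.43 FPKM in the sg2 libraries numbered 2 and 1, 8.17 and 10.1 FPKM in the sg5 libraries, and 8.06 and 7.83 FPKM in the EV libraries. The first sg5 library stood above the other 5, and sg5 differed from EV by 0.17 (SE 0.17) and from sg2 by 0.24 (SE 0.17, limma adjusted p = 1.00). For sg2 against EV, the smallest p values belonged to Psme4 at -0.11 (SE 0.17), Psmd11 at -0.088 (SE 0.17), Psmd14 at -0.16 (SE 0.31) and Psme3 at -0.11 (SE 0.25). For sg5 against EV they belonged to Psma8 at -0.18 (SE 0.18), Psme2b, Psmd3 at -0.18 (SE 0.23) and Psme3 at -0.18 (SE 0.25). For sg5 against sg2 they belonged to Psme2b, Psmd3, Psma8 and Psmd11.

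The second comparison set replicate number 2 against number 1 within the 3 groups. The labels share these numbers between groups and do not say what a number stands for, and libraries with the same number deviated together. Proteasome genes were lower in number 2. By limma with the 3 groups as covariates, 33 of 40 members fell and 0 rose, beside 26.9% of all 12929 genes called lower and 20.2% called higher (47.1% in all). The adjusted p values of the 33 lay between 0.00179 and 0.0434. At an unadjusted p under 0.05 there were 36 members, all lower, beside 56.3% of all genes in either direction. All 40 differences were negative, between -0.047 (Psma6) and -1.17 (Psmc5), with a median of -0.49, against -0.043 over all genes. Negative differences made up 53.2% over all genes. Of all genes tested, 17.8% lay below the members' median. The 1137 other protein-coding genes in the members' middle range of levels, 60.5 to 136 FPKM, had a median of -0.17. In FPKM, number 2 averaged between 43.6% (Psmc5) and 96.9% (Psma6) of number 1, with a median of 70.6%.

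**Figure D3:**
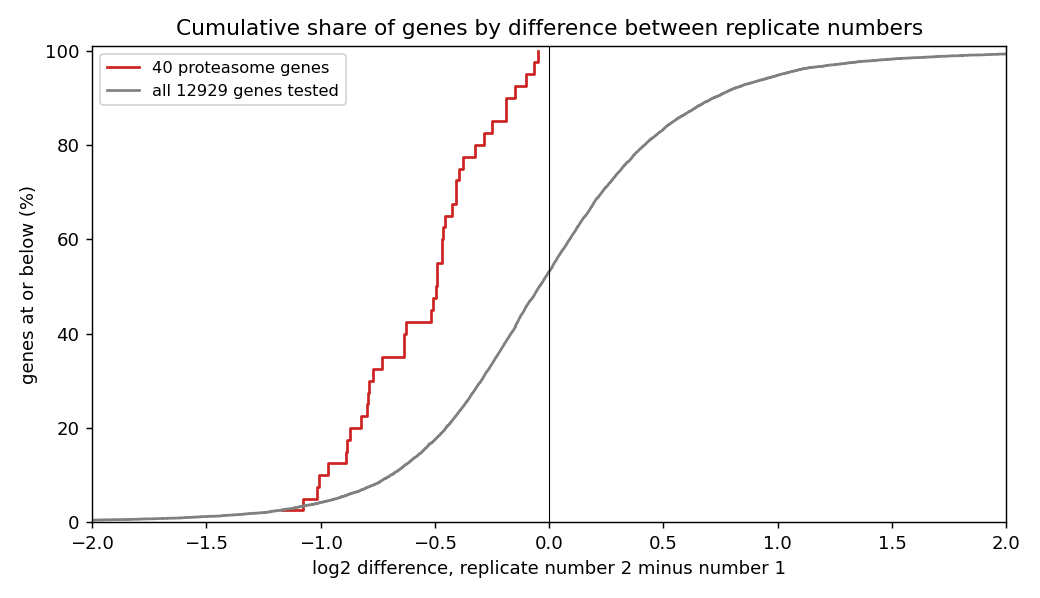
Cumulative percent of genes by their log2(FPKM + 1) difference, replicate number 2 minus number 1, for the 40 proteasome genes and for all 12929 genes tested. The axis covers -2 to 2. The members' line lies left of that of all genes over nearly its whole length, with a median of -0.49 against -0.043, and all members lie below 0.

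The direction was shared by the 3 groups. The median difference, number 2 minus number 1, was -0.61 in sg2, -0.45 in sg5 and -0.51 in EV, with 39, 39 and 38 of 40 members below 0. Over all genes tested, 52.8 to 52.9% were below 0 in each group, and the share lower in all 3 groups was not counted. For 37 members all 3 groups were lower in number 2, and each of these had the smallest exact permutation p that swaps within 3 pairs allow, 0.25. For 35 of 40 members the 3 number 2 libraries lay below all 3 number 1 libraries, as they did for 34.1% of all genes. The 7 members that did not pass were Psma6, Psma8, Psmb1, Psmd11, Psme2b, Psme3 and Psme4. Only Psme2b had a higher value in number 2 in more than 1 group. With the groups as covariates, leaving out either library of a group removes its whole pair from the difference between numbers. Both such fits of a group therefore give the same differences and are not separate checks. Leaving out either EV library or either sg2 library left 24 members called, and Psma2, Psma3, Psmc2, Psmd4, Psmd3, Psmd8, Psmd5, Psme2 and Psmc3ip did not pass then. Calls over all genes dropped as well, with 1802 to 1845 of 12929 called lower, against 3472 with all 6 libraries. Leaving out either sg5 library left 32 members called, beside 2463 or 2505 of all genes called lower.

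Scaling bears on the size of this difference. Rescaling each library to its protein-coding sum moved the median of all genes by 0.17, to 0.12, and that of the members to -0.31. In that scale 28 members fell, 36 were negative and 4 positive, beside 40.4% of all genes negative. Of all calls 35.6% were then lower, against 57.0% as deposited, and 17.1% of all genes were called lower and 31.0% higher. Rescaling by the median of ratios gave -0.44 for the members and 0.0068 for all genes, with 31 members lower and 50.3% of all calls lower. Of all 12929 genes, 3032 were then called lower and 2997 higher. Relative to the median of all genes, the members differed by -0.45 as deposited, -0.43 under the protein-coding sum and -0.45 under the median of ratios. The other markers that moved with the number are given here beside it. Mpo, a granule enzyme of promyelocytes, had 12.3, 14.8 and 13.0 FPKM in the number 2 libraries of sg2, sg5 and EV, against 41.5, 123 and 151 FPKM in the number 1 libraries, a difference of -2.69 (SE 0.35, limma adjusted p = 0.0056). Cebpa, a myeloid transcription factor, had 216, 208 and 136 FPKM in the number 2 libraries of sg2, sg5 and EV, against 44.3, 70.2 and 32.2 FPKM in the number 1 libraries, a difference of 1.95 (SE 0.15, limma adjusted p = 0.00234). Summed over the 9 myeloid progenitor markers the libraries had 777 to 941 FPKM in number 2, against 735 to 1043 FPKM in number 1. The 2 monocyte or macrophage markers, Csf1r and Adgre1, summed to 37.0 to 50.03 FPKM, against 28.5 to 34.7 FPKM. The erythroid marker Hba-a1 had 18.6, 5.28 and 11.4 FPKM in the number 2 libraries of sg2, sg5 and EV, against 5.20, 3.52 and 2.36 FPKM in the number 1 libraries. The fibroblast pair Col1a1 and Col1a2 summed to 0.288 to 2.07 FPKM in number 2, against 0.132 to 0.220 FPKM in number 1. The part of these markers, and of the short genes named above, in the members' difference was not tested.

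Promoter sequence was read for the members with an entry in RefSeq's table for GRCm38.p6, which gives 250 bases before to 50 after each annotated start. It held 36 windows for 33 members, all but Psma8, Psmb1, Psmb2, Psmb7, Psmc3, Psmd3 and Psmd7. Both strands were searched for 4 motifs. The first, TGACNNNGC, is the core of the antioxidant response element bound by Nfe2l1 and Nfe2l2 with small Maf proteins. It was in 5 of the 36 windows (13.9%), those of Psmb6, Psmc6, Psmd9, Psmd12 and Psme4, beside 12.4% of all 32851 windows and 14.3% of those of the protein-coding genes tested. CCAAT was in 36.1% of the members' windows and 37.4% of all, and the E-box CACGTG in 8.33% and 7.15%. Of the windows of protein-coding genes tested, 38.1% held the first of this pair and 9.96% the E-box. CCGGAA, the core of ETS factor sites, was in 19 of 36 windows (52.8%), beside 14.9% of all windows and 29.6% of the 10407 windows of protein-coding genes tested. None of the 4 motifs contains another, though their matches may share bases.
The 3 holders of TGACNNNGC with the smallest p between replicate numbers are shown with that motif, in either orientation, in capitals.
Psmd9 chr5:123227940-123228239 plus strand: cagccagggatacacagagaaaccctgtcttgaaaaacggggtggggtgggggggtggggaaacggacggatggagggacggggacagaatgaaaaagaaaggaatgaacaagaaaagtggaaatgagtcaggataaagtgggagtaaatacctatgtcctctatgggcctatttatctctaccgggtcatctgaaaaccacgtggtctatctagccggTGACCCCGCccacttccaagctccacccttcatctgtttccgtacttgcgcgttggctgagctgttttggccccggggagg
Psmb6 chr11:70525107-70525406 plus strand: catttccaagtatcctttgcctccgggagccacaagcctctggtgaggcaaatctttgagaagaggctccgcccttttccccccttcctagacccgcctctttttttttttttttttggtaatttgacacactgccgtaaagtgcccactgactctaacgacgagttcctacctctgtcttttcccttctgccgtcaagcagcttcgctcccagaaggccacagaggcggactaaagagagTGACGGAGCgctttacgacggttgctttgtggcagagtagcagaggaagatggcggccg
Psmd12 chr11:107479278-107479577 plus strand: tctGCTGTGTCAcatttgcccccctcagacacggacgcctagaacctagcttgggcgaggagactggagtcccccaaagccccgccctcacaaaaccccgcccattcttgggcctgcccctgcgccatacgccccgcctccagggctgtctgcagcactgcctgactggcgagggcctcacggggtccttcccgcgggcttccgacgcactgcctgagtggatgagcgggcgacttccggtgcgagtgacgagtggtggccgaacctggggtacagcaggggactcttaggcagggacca
Counted from the annotated start, with bases before it negative, the motif began at -31 in Psmd9, -9 in Psmb6 and -247 in Psmd12, where it stands on the other strand. The members with the largest and the smallest relative difference between numbers by mean FPKM, Psmc5 and Psma6, are shown with CCGGAA in capitals on either strand. Both were chosen after their values were seen.
Psmc5 chr11:106255935-106256234 plus strand: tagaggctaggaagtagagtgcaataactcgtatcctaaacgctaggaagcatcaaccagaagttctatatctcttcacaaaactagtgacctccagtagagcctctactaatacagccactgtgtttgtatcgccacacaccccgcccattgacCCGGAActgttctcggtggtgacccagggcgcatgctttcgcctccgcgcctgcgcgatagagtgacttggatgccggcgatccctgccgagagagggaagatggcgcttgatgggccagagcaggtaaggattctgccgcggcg
Psma6 chr12:55398575-55398874 plus strand: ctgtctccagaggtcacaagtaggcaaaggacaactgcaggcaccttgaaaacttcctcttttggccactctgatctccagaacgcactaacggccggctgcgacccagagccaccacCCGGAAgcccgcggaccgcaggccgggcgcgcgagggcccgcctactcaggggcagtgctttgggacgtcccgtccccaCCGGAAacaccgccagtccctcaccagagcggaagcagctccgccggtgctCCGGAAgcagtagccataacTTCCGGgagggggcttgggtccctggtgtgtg
Psmc5, with the largest difference, held the motif once, at -95. Psma6, with nearly none, held it 4 times, at -132, -53, -2 and 19, the last on the other strand. The 18 members with CCGGAA had a median difference between numbers of -0.49, and the 15 members whose window lacked it -0.52. A match is a description of the letters only.

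**Figure D4:**
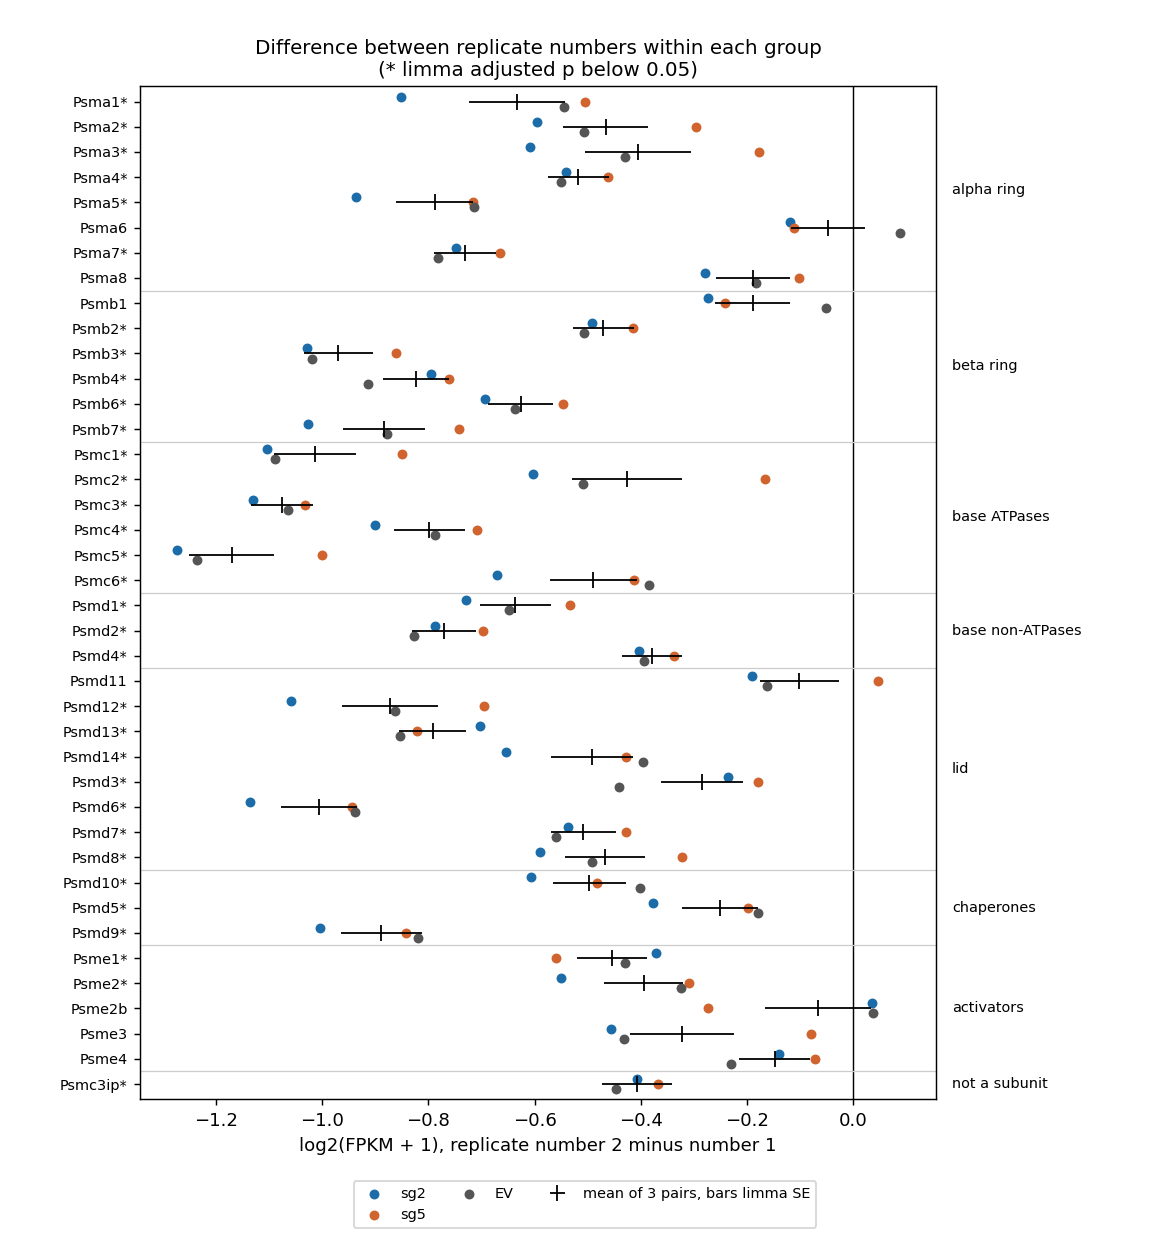
Log2(FPKM + 1) difference, replicate number 2 minus number 1, of the 40 genes by role. Points are the pairs within sg2, sg5 and EV, ticks the mean of the 3 pairs, and bars 1 SE from limma to either side. Asterisks mark an adjusted p under 0.05. The base ATPases reach farthest left (median -0.91), and Psma6, Psmd11 and Psme2b lie nearest to 0.

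The 6 ATPases of the base, which form the ring that unfolds substrates, had the most negative median of the role groups, -0.91, and 6 of 6 fell. Psmc5 (ENSMUSG00000020708, GRCm38 chromosome 11, 106256154 to 106263120, plus strand) had 35.2, 36.0 and 37.1 FPKM in the number 2 libraries of sg2, sg5 and EV, against 86.5, 73.0 and 88.7 FPKM in the number 1 libraries. Number 2 libraries held 43.6% of the number 1 mean and the groups of libraries lay far apart, with a difference of -1.17 (SE 0.080, limma adjusted p = 0.00205). Psmc3 (ENSMUSG00000002102, GRCm38 chromosome 2, 91054009 to 91066369, plus strand), one of the 3 ATPases whose tails open the gate of the core, had 57.4, 58.3 and 64.0 FPKM in the number 2 libraries of sg2, sg5 and EV, against 127, 120.3 and 135 FPKM in the number 1 libraries. Number 2 held 47.0% of number 1, and the difference was -1.08 (SE 0.058, limma adjusted p = 0.00179). Psmc1, another with such a tail, had 44.4 (sg2), 46.0 (sg5) and 45.2 (EV) FPKM under number 2, against 96.6, 83.7 and 97.2 FPKM under number 1. Its difference was -1.01 (SE 0.078, limma adjusted p = 0.00236), again with no overlap. Psmc4, the last with such a tail, had 47.7 (sg2), 46.7 (sg5) and 51.1 (EV) FPKM under number 2, against 90.0, 76.9 and 88.8 FPKM under number 1, a difference of -0.80 (SE 0.067, limma adjusted p = 0.00255). Psmc6 had 70.6 (sg2), 82.1 (sg5) and 80.5 (EV) FPKM under number 2, against 113, 109.7 and 105 FPKM under number 1, a difference of -0.49 (SE 0.081, limma adjusted p = 0.0102). Psmc2 had 55.1 (sg2), 65.5 (sg5) and 62.4 (EV) FPKM under number 2, against 84.2, 73.6 and 89.2 FPKM under number 1, a difference of -0.43 (SE 0.10, limma adjusted p = 0.0285). In Psmc2 the sg5 pair lay closest together, and the other pairs were wider. In the guide comparison, the smallest p values of the role belonged to Psmc3 at -0.13 (SE 0.47) and Psmc2 at -0.12 (SE 0.23), and neither passed. Psmc3 shares 215 exon bases with Slc39a13 on the opposite strand, and the use of strand in counting is not stated.

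The beta ring, whose members include the proteolytic subunits, had a median of -0.72, and 5 of 6 members fell. Psmb3, a subunit without an active site, had 90.4, 85.2 and 94.0 FPKM in the number 2 libraries of sg2, sg5 and EV, against 186, 156 and 191 FPKM in the number 1 libraries. Number 2 was 50.6% of number 1, with a difference of -0.97 (SE 0.065, limma adjusted p = 0.00201). Psmb7, which carries the trypsin-like site, had 74.1, 79.5 and 81.8 FPKM in the number 2 libraries of sg2, sg5 and EV, against 152, 134 and 151 FPKM in the number 1 libraries, a difference of -0.88 (SE 0.077, limma adjusted p = 0.00263). Psmb6, which carries the caspase-like site, had 113, 111 and 113 FPKM in the number 2 libraries of sg2, sg5 and EV, against 183, 162 and 176 FPKM in the number 1 libraries, a difference of -0.63 (SE 0.061, limma adjusted p = 0.00312). Psmb7 and Psmb6 were both lower in number 2 in every group. The 5 beta subunits left out by name were not examined here. Psmb4 had 151 (sg2), 143 (sg5) and 142 (EV) FPKM under number 2, against 262, 243 and 268 FPKM under number 1, a difference of -0.82 (SE 0.062, limma adjusted p = 0.0023). Psmb2 had 133 (sg2), 135 (sg5) and 137 (EV) FPKM under number 2, against 188, 180.0 and 195 FPKM under number 1, a difference of -0.47 (SE 0.057, limma adjusted p = 0.00475). Neither of these subunits has a proteolytic site of its own. Psmb1, also without one, had 208 (sg2), 205 (sg5) and 228 (EV) FPKM under number 2, against 252, 242 and 236 FPKM under number 1. It was the highest of the ring and did not pass, with a difference of -0.19 (SE 0.071, limma adjusted p = 0.0858), although its number 2 values lay below its number 1 values. Between guides and EV, Psmb3 differed by -0.13 (SE 0.44) and Psmb1 by -0.040 (SE 0.15), and neither passed. Psmb7 shares 405 exon bases with Nek6 on the other strand.

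The alpha ring, through whose gate substrates enter, had a median of -0.49, and 6 of 8 members fell. Psma7 had 150.3, 142 and 144 FPKM in the number 2 libraries of sg2, sg5 and EV, against 253, 225 and 248 FPKM in the number 1 libraries, a difference of -0.73 (SE 0.059, limma adjusted p = 0.00243). Psma5 had 74.4, 82.0 and 90.9 FPKM in the number 2 libraries of sg2, sg5 and EV, against 143, 135 and 149.9 FPKM in the number 1 libraries, a difference of -0.79 (SE 0.073, limma adjusted p = 0.00287). In both genes the 3 number 2 libraries lay well below the others. Psma1 had 161 (sg2), 181 (sg5) and 191 (EV) FPKM under number 2, against 292, 257 and 279.6 FPKM under number 1, a difference of -0.63 (SE 0.090, limma adjusted p = 0.00682). Psma4 had 102 (sg2), 95.3 (sg5) and 102 (EV) FPKM under number 2, against 148, 132 and 149.7 FPKM under number 1, a difference of -0.52 (SE 0.058, limma adjusted p = 0.00401). Psma2 had 153 (sg2), 169.5 (sg5) and 168 (EV) FPKM under number 2, against 231, 208 and 239 FPKM under number 1, a difference of -0.47 (SE 0.080, limma adjusted p = 0.011). These genes too had no overlap between numbers. Psma3 had 75.3 (sg2), 85.8 (sg5) and 82.8 (EV) FPKM under number 2, against 115, 97.2 and 112 FPKM under number 1, a difference of -0.41 (SE 0.099, limma adjusted p = 0.0287). Its level is uncertain, because Gm13835 is 100% identical to it over 665 bases and its copies together had 49.5% of its mean FPKM. Psma6 (ENSMUSG00000021024, GRCm38 chromosome 12, 55384222 to 55418454, plus strand) was the highest of all members and had 259, 266 and 291 FPKM in the number 2 libraries of sg2, sg5 and EV, against 281, 287 and 274 FPKM in the number 1 libraries. Its numbers overlapped, the EV library of number 2 being the highest of the 6, and the difference was -0.047 (SE 0.070, limma adjusted p = 0.605). Psma8, known from male germ cells in place of Psma7, had 19.3, 18.6 and 20.6 FPKM in the number 2 libraries of sg2, sg5 and EV, against 23.7, 20.1 and 23.6 FPKM in the number 1 libraries. The second EV library exceeded the first sg5 library, and the difference of -0.19 (SE 0.069, limma adjusted p = 0.0837) did not pass. With guides set against EV, Psma5 differed by -0.16 (SE 0.36) and Psma8 by -0.11 (SE 0.14), and neither passed.

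The 3 base subunits that are not ATPases had a median of -0.64, and 3 of 3 fell. Psmd2, the docking site of shuttle receptors and of the deubiquitinase Usp14, had 88.0, 87.0 and 88.7 FPKM in the number 2 libraries of sg2, sg5 and EV, against 153, 142 and 158 FPKM in the number 1 libraries. The number 2 libraries were alike to within a few FPKM, and the difference was -0.77 (SE 0.060, limma adjusted p = 0.00239). Psmd1, the large scaffold of the base, had 68.0, 68.1 and 76.3 FPKM in the number 2 libraries of sg2, sg5 and EV, against 113, 99.0 and 120.0 FPKM in the number 1 libraries, a difference of -0.64 (SE 0.067, limma adjusted p = 0.00353). Psmd4, a receptor for ubiquitin chains, had 76.8, 71.2 and 74.5 FPKM in the number 2 libraries of sg2, sg5 and EV, against 102, 90.2 and 98.2 FPKM in the number 1 libraries, a difference of -0.38 (SE 0.057, limma adjusted p = 0.00782). All 3 genes had their number 2 libraries below their number 1 libraries. With guides set against EV, Psmd1 differed by -0.17 (SE 0.30) and Psmd2 by -0.063 (SE 0.35), and neither passed.

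The lid, which holds Psmd14 and its scaffold, had a median of -0.50, and 7 of 8 members fell. Psmd6 had 37.5, 37.3 and 42.3 FPKM in the number 2 libraries of sg2, sg5 and EV, against 83.6, 72.8 and 81.9 FPKM in the number 1 libraries. Its number 2 libraries held 49.1% of the number 1 mean, a difference of -1.01 (SE 0.071, limma adjusted p = 0.00212), the most negative of the lid. Psmd12 had 31.0, 32.4 and 35.3 FPKM in the number 2 libraries of sg2, sg5 and EV, against 65.6, 53.0 and 65.1 FPKM in the number 1 libraries, a difference of -0.87 (SE 0.090, limma adjusted p = 0.00344). Psmd13 had 81.9, 68.0 and 72.6 FPKM in the number 2 libraries of sg2, sg5 and EV, against 134, 121 and 132 FPKM in the number 1 libraries, a difference of -0.79 (SE 0.063, limma adjusted p = 0.00242). Psmd13 shares 342 exon bases with Sirt3 on the opposite strand, so reads from either cannot be told apart unless strand was used. Psmd14 (ENSMUSG00000026914, GRCm38 chromosome 2, 61711694 to 61800376, plus strand), whose values stand above, had a difference of -0.49 (SE 0.077, limma adjusted p = 0.00867). Psmd7, which pairs with Psmd14 in the lid, had 55.3 (sg2), 54.7 (sg5) and 56.2 (EV) FPKM under number 2, against 80.7, 73.9 and 83.2 FPKM under number 1, a difference of -0.51 (SE 0.062, limma adjusted p = 0.00475). Psmd8 had 79.7 (sg2), 87.2 (sg5) and 84.5 (EV) FPKM under number 2, against 120.5, 109 and 119 FPKM under number 1, a difference of -0.47 (SE 0.075, limma adjusted p = 0.00932). These were lower in number 2 in every pair. Psmd3 had 59.8 (sg2), 52.4 (sg5) and 54.3 (EV) FPKM under number 2, against 70.6, 59.4 and 74.0 FPKM under number 1. The sg2 library of number 2 was slightly above the sg5 library of number 1, so the numbers overlapped, and the difference was -0.29 (SE 0.077, limma adjusted p = 0.0374). Psmd11, a lid subunit that contacts the core, had 57.6 (sg2), 67.4 (sg5) and 61.9 (EV) FPKM under number 2, against 65.8, 65.2 and 69.4 FPKM under number 1. Here sg5 was higher in number 2 and the other groups lower, with a difference of -0.10 (SE 0.075, limma adjusted p = 0.31). Its near-identical copies A730017L22Rik and Gm14048 together had 11.1% of the mean FPKM of Psmd11. In the guide comparison, Psmd14 and Psmd3 had the smallest p values of the lid, Psmd3 at -0.074 (SE 0.19).

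The 3 chaperones help the ATPase ring assemble and leave before the proteasome is complete. Their median was -0.50, and 3 of 3 fell. Psmd9 had 8.28, 8.47 and 8.95 FPKM in the number 2 libraries of sg2, sg5 and EV, against 17.6, 16.0 and 16.6 FPKM in the number 1 libraries. It was the lowest of the 3, and number 2 held 51.2% of number 1, a difference of -0.89 (SE 0.076, limma adjusted p = 0.00262). Psmd10, also known as gankyrin, had 40.2, 42.7 and 42.8 FPKM in the number 2 libraries of sg2, sg5 and EV, against 61.8, 60.0 and 56.8 FPKM in the number 1 libraries, a difference of -0.50 (SE 0.069, limma adjusted p = 0.00649). Psmd5 had 28.6, 31.6 and 32.5 FPKM in the number 2 libraries of sg2, sg5 and EV, against 37.5, 36.5 and 36.9 FPKM in the number 1 libraries, a difference of -0.25 (SE 0.072, limma adjusted p = 0.0434). In each of them the number 2 libraries lay below the number 1 libraries. Between guides and EV, Psmd5 differed by -0.051 (SE 0.16) and Psmd10 by 0.027 (SE 0.24), and neither passed.

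Among the activators 2 of 5 fell, with a median of -0.32. Psme1 and Psme2 encode the interferon-inducible ring that caps the core in antigen processing. Psme1 had 179, 151 and 169 FPKM in the number 2 libraries of sg2, sg5 and EV, against 232, 223 and 227 FPKM in the number 1 libraries, a difference of -0.45 (SE 0.065, limma adjusted p = 0.00703). Psme2 had 192, 189 and 212 FPKM in the number 2 libraries of sg2, sg5 and EV, against 281, 234 and 265 FPKM in the number 1 libraries, a difference of -0.39 (SE 0.074, limma adjusted p = 0.0142). Both were lower in number 2 in each group, and they lie 0.866 and 0.875 Mb from Cebpe on chromosome 14. Other interferon-responsive genes rose in number 2: Irf1 by 0.41 (SE 0.064, limma adjusted p = 0.00888) and Tap1 by 1.01 (SE 0.086, limma adjusted p = 0.00259). Tap1, a peptide transporter of antigen processing, had 180.3, 158 and 165 FPKM in the number 2 libraries of sg2, sg5 and EV, against 80.2, 89.1 and 79.5 FPKM in the number 1 libraries. All 3 number 2 libraries exceeded all 3 number 1 libraries. Psme2b, 99.4% identical to Psme2 over 794 bases, had the values given above and a difference of -0.067 (SE 0.10, limma adjusted p = 0.609), and its level is uncertain for that reason. Psme3, the nuclear relative of Psme1, had 50.8 (sg2), 55.4 (sg5) and 55.5 (EV) FPKM under number 2, against 70.0, 58.6 and 75.2 FPKM under number 1. The sg5 pair was close together and the others apart, with a difference of -0.32 (SE 0.098, limma adjusted p = 0.0514). Psme4, a large single-chain activator, had 24.2 (sg2), 26.5 (sg5) and 25.4 (EV) FPKM under number 2, against 26.8, 27.9 and 30.0 FPKM under number 1, a difference of -0.15 (SE 0.067, limma adjusted p = 0.131). With guides set against EV, Psme3 differed by -0.15 (SE 0.19) and Psme4 by -0.067 (SE 0.13), and neither passed. Psmc3ip, a partner of the meiotic recombinases, had 11.5 (sg2), 12.1 (sg5) and 12.2 (EV) FPKM under number 2, against 15.6, 15.9 and 16.9 FPKM under number 1. It fell in number 2 by a difference of -0.41 (SE 0.066, limma adjusted p = 0.00946), and differed by -0.070 (SE 0.20) for guides against EV. It shares 385 exon bases with Mlx on the opposite strand.

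Beside the members stand 36 measured genes that assemble, feed or regulate the proteasome. Between numbers 19 of 36 fell, 2 rose and 15 did not pass, with a median of -0.29, beside 26.9% of all genes called lower, 20.2% called higher and a median of -0.043. Pomp, which matures the core, had 96.3, 108 and 128 FPKM in the number 2 libraries of sg2, sg5 and EV, against 190.4, 169 and 207 FPKM in the number 1 libraries, a difference of -0.77 (SE 0.087, limma adjusted p = 0.00412). Psmg3, a chaperone of the alpha ring, had 18.4, 16.6 and 16.7 FPKM in the number 2 libraries of sg2, sg5 and EV, against 34.3, 25.9 and 34.9 FPKM in the number 1 libraries, a difference of -0.83 (SE 0.098, limma adjusted p = 0.00446). Uba1, the main ubiquitin-activating enzyme, had 74.6, 62.0 and 60.9 FPKM in the number 2 libraries of sg2, sg5 and EV, against 108, 106 and 118 FPKM in the number 1 libraries, a difference of -0.74 (SE 0.096, limma adjusted p = 0.00543). All 3 were lower in number 2 in every group. The segregase Vcp differed by -0.55 (SE 0.057, limma adjusted p = 0.00353) and the shuttle receptor Rad23b by -0.60 (SE 0.060, limma adjusted p = 0.00333). The 2 that rose were Akirin2, which carries proteasomes into the nucleus, by 0.37 (SE 0.074, limma adjusted p = 0.017), and Zfand2a, a stress-induced proteasome binder, by 0.63 (SE 0.076, limma adjusted p = 0.00466). Nfe2l1 had 38.5, 29.7 and 38.3 FPKM in the number 2 libraries of sg2, sg5 and EV, against 39.9, 41.8 and 32.1 FPKM in the number 1 libraries. Its pairs went different ways, and the difference of -0.093 (SE 0.15, limma adjusted p = 0.639) did not pass. Nfe2l2 differed by 0.16 (SE 0.077, limma adjusted p = 0.156) and Ddi2, the protease that activates Nfe2l1, by 0.32 (SE 0.13, limma adjusted p = 0.103). With guides set against EV, 0 of 36 passed limma's test with or without the block, with a median of -0.014. Among the smallest p values there were those of Psmg4 at -0.17 (SE 0.17), Akirin2 at 0.18 (SE 0.20) and Pomp at -0.27 (SE 0.35).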

How the data were processed

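Total RNA was made into TruSeq libraries and read on a HiSeq instrument, per the labels' protocols. The authors deposited 1 table of FPKM values per library. The submitters' processing notes list kallisto 0.43.0 and DESeq2, and GRCm38 and mm10 as builds, with no roles. How FPKM were derived, with which annotation and whether by strand, is not given in the sources used here. Gene types and positions are from GENCODE M21 (GRCm38). Promoter windows are from RefSeq (GRCm38.p6).

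FPKM as deposited were taken as log2(FPKM + 1), a scale that understates changes of low genes. Genes averaging 1 FPKM or more were tested with limma 3.58.1 (R 4.3.3), using its intensity trend, and p-values were adjusted over all of them by Benjamini-Hochberg at 0.05. Guides were tested as 4 libraries against 2. A fit of 3 groups set each guide against EV and sg5 against sg2. Replicate number 2 was tested against 1 with the groups as covariates. Count models were not run on FPKM. The procedure was tested on simulated data.

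Depth was estimated from low values of 752 single-transcript genes longer than 4000 bases, at an assumed fragment length of 200. Of the low values 93.4 to 98.1% were whole within 0.15 fragments. Floors cover counting error only.

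Differences between replicates 1 and 2 correlated across genes at 0.611 (sg2 and EV), 0.591 (sg5 and EV) and 0.583 (sg5 and sg2), and 6 of 6 libraries correlated best with one of the same number. Numbers were taken to pair the libraries on that ground, not from the labels.

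Near-identical transcripts were sought with BLAST 2.17.0, at 95% identity or more over 200 bases or more. Values in every library were given for the highest and lowest member of each role, the members of smallest p and every member called. Some genes of the marker and partner lists are not reported here. Members and lists were chosen with earlier results of these data known. Tables were prepared in Python 3.11.15 with pandas 2.3.3, numpy 2.4.6 and scipy 1.17.1, and figures with matplotlib 3.10.9. Permutation p-values were counted directly over all splits or swaps, with numpy.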

Additional observations from a re-analysis of the deposited data

Results flagged for a closer look

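For 6 members the sg5 libraries and the sg2 libraries lay on opposite sides of the EV library of the same number, in both numbers, as did 5.77% of all 12929 genes tested. Psma7 was lower in sg5 and higher in sg2, with a difference, sg5 minus sg2, of -0.13 (SE 0.43, limma adjusted p = 1.00). The same held for Psmb6, which differed by -0.10 (SE 0.38, limma adjusted p = 1.00). Psmd4 showed it with a difference of -0.14 (SE 0.26, limma adjusted p = 1.00). Psmd13 showed it with -0.20 (SE 0.46, limma adjusted p = 1.00), and Psme1 with -0.15 (SE 0.30, limma adjusted p = 1.00). Psme2b went the other way, higher in sg5 and lower in sg2, with 0.24 (SE 0.17, limma adjusted p = 1.00). The flag rests on signs alone and the opposite directions were not tested. In limma's comparison of sg5 with sg2 none of the 6 passed, the fit with the replicate block called 0 of 40 members, and the conflicting label of the second sg5 library touches all 6.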

How the results depend on the processing

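The call of 0 members in each comparison with guides was kept under every alternative run: no filter or one at 5 FPKM, a pseudocount of 0.1, both rescalings, protein-coding genes only, no intensity trend, the second sg5 library grouped as sg2, each library left out, and the replicate block. With the replicate number as a block, the members' median was -0.068 for guides against EV, -0.046 for sg2, -0.095 for sg5 and -0.059 for sg5 against sg2, as without it. The block changed no member's call. Without the block, leaving out 1 library at a time turned medians round, since the numbers are then unequal between groups. The range was -0.35 to 0.19 for guides against EV, -0.34 to 0.26 for sg2 against EV, -0.39 to 0.18 for sg5 against EV and -0.36 to 0.27 for sg5 against sg2. With the block it was -0.091 to -0.046 for guides against EV. With the second sg5 library grouped as sg2, the median without the block was -0.13 for sg2 against EV, 0.14 for sg5 against EV and 0.28 for sg5 against sg2. The sg5 arm is then 1 library of number 1, so that the numbers are again unequal between groups, while the pair of number 1 gives -0.15 for sg5 minus EV. Rescaling to the protein-coding sum gave -0.056 for sg5 against EV and -0.023 for sg5 against sg2.

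Single members did likewise for guides against EV without the block. The ranges were -0.52 to 0.20 for Psma5, -0.64 to 0.37 for Psmb3, -0.092 to 0.0076 for Psmb1, -0.37 to 0.14 for Psmc2 and -0.67 to 0.40 for Psmc3. They were -0.49 to 0.15 for Psmd1, -0.48 to 0.35 for Psmd2, -0.39 to 0.010 for Psmd14, -0.29 to 0.15 for Psmd3 and -0.14 to 0.038 for Psmd5. They were -0.17 to 0.23 for Psmd10, -0.36 to 0.070 for Psme3, -0.18 to 0.049 for Psme4 and -0.29 to 0.15 for Psmc3ip. For sg2 against EV the range was -0.49 to 0.17 for Psmd14, -0.34 to 0.12 for Psme3, -0.23 to 0.0037 for Psme4 and -0.18 to 0.0072 for Psmd11. For sg5 against EV it was -0.40 to 0.038 for Psmd3 and -0.39 to 0.038 for Psme3. With the block, Psmb1 was at 0.063 and Psmd5 at 0.00318 without the second EV library, and Psmd3 at 0.043 and Psmd10 at -0.045 without the first.

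For number 2 against number 1 the members' median stayed negative, at -0.55 to -0.48 with 1 library left out and at -0.31 after rescaling to the protein-coding sum, where the cause was not tested. Each library left out takes its whole pair from this difference, so both libraries of a group give the same median. With 1 library left out Psme2b ranged over -0.12 to 0.036. Between 24 and 34 members were called over all alternatives. The filter at 5 FPKM gave 34, beside 3369 of 9902 genes called lower. Protein-coding genes only also gave 34 (3670 of 10581 lower), as did the fit without the groups as covariates (3715 of 12929). Without a filter 29 were called, beside 2612 of 26126 genes called lower, and Psma3, Psmc2, Psmd3 and Psmd5 did not pass. Rescaling to the protein-coding sum left 28, beside 2211 of 12929 genes called lower, with Psme2 failing besides these 4. The median of ratios and the fit without the trend each left 31, Psmd3 and Psmd5 failing. Of 12929 genes, 3032 and 3207 were then called lower. After rescaling to the protein-coding sum Psma6 was at 0.14, Psmd11 at 0.081, Psme2b at 0.098 and Psme4 at 0.031, and under the median of ratios Psma6 was at 0.0087. None of these 4 passed the test. The 2 rescalings with the block were added after seeing the data.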

Other observations

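Over the 40 members, Spearman's rho between the difference of number 2 minus number 1 and GC content of the transcript was -0.28, with transcript length 0.18 and with mean level -0.070. Over the 10483 protein-coding genes tested, the same values were 0.063, 0.055 and -0.19. The points of each correlation share the same 6 libraries and are genes, not replicates.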
